A study of Homo sapiens with 3 samples.

Results

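The genes described here encode aminoacyl-tRNA synthetases, the enzymes that attach each amino acid to its tRNA. They were taken by name from a list of 36 genes, 20 for cytosolic and 16 for mitochondrial enzymes, and all 36 were found among the 19225 genes of the deposited table. RNA had been sequenced from 5637 cells, an established human bladder cancer line whose genotype label is WT in every library, in a study of genes downstream of CDCA3, a cell division cycle associated gene. One library came from cells transfected with a control siRNA (siNC) and 2 from cells transfected with siRNA against CDCA3 (siCDCA3-1 and siCDCA3-2). The labels do not say whether those 2 libraries used different siRNA sequences or came from separate cultures. No time after transfection is given in the sources used here.

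Each synthetase reads one amino acid and its tRNAs, and the charged tRNA is carried to the ribosome by an elongation factor. The cytosol and the mitochondrion translate separately and mostly use enzymes from different genes. GARS and KARS, however, each serve both compartments. When charged tRNA runs short, the kinase GCN2 (EIF2AK4) phosphorylates eIF2 and the transcription factor ATF4 is made, and many cytosolic synthetase genes are among the known ATF4 targets. Several cytosolic enzymes sit together in the multisynthetase complex, held by the scaffold proteins AIMP1, AIMP2 and EEF1E1.

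The libraries held 40420563 to 62389922 gene-level counts. Levels are given as RPKM, in which the reads of a gene are divided by its transcript length and by a library total. Genes can so be compared per length. The authors' totals, recovered from counts and RPKM, ran from 104153360 to 160640877. RPKM are therefore lower than the gene-level counts above would give. Differences are of log2(RPKM + 1), siCDCA3 minus siNC, which understates the change of low genes. Counting intervals are exact 95% binomial intervals on the ratio of 2 libraries and cover counting error only. CDCA3 itself stood at an RPKM of 5.52 in siNC, against 0.574 and 1.40 in siCDCA3-1 and siCDCA3-2. The 8 epithelial markers summed to RPKM of 1785 to 2604, and the 4 leukocyte and 4 endothelial markers to under 1. The 4 fibroblast markers summed to 2.30 to 8.41, nearly all of it COL1A1. No marker was at 0 in all 3 libraries. Since siNC has 1 library, both differences of a gene use the same siNC value and are not independent of each other.

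The promoters of some cytosolic synthetase genes share a short sequence. TGATGNAA, the core of the amino acid response element known from ASNS, was searched on both strands in the RefSeq promoters of GRCh38.p14, windows of 300 bases from 250 before to 50 after a transcript start. Promoters were listed for 30 of the 36 members. The motif was found for 7 of 10 cytosolic members usually listed as ATF4 targets, for 0 of 6 other cytosolic members and for 1 of 14 mitochondrial members. It was present in 3.62% of all 35116 promoters of this length, and in 2.53% of the 8380 expressed genes with a promoter listed. The stretches of all 8 members with a match are shown so that the letters around the motif can be read side by side. Of these 8, YARS2 is mitochondrial and was not lower in the siCDCA3 libraries. Each runs 5′ to 3′ on the strand that reads TGATGNAA, with the motif in capitals, and ASNS is added for comparison.
AARS, chr16:70289675-70289704, plus strand: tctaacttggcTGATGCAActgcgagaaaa
CARS, chr11:3057407-3057436, plus strand: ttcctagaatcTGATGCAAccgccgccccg
GARS, chr7:30594834-30594863, minus strand: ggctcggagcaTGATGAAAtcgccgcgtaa
IARS, chr9:92293692-92293721, plus strand: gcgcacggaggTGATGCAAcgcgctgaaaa
MARS, chr12:57488053-57488082, minus strand: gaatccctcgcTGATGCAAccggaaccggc
NARS, chr18:57621804-57621833, minus strand: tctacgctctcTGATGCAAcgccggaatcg
TARS, chr5:33440956-33440985, minus strand: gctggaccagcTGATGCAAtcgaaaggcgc
YARS2, chr12:32756076-32756105, minus strand: atccacactgcTGATGGAAaaattaagttt
ASNS, chr7:97872458-97872487, minus strand: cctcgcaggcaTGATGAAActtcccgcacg

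The cytosolic members with a match carried TGATGCAA in every case but GARS, which had the same 8 letters as ASNS. In CARS and MARS the match lay over the annotated start, and in IARS it ended 5 bases before it. In NARS it began 14 bases after the start, and in AARS it ended 179 bases before. GARS and TARS each have 2 listed starts, and their matches belong to the start inside the locus: in GARS the match ended 25 bases before it and in TARS it began 2 bases after. No match was found in the listed promoters of EPRS, SARS and WARS. A match is only a description of these letters in this window, and a list of known ATF4 targets is not independent of such sequences.

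The main pattern was a lower level of one part of the cytosolic enzymes in both siCDCA3 libraries. At least 2-fold lower in both were AARS, CARS, GARS, MARS, SARS, WARS and YARS, 7 of the 36 members, where 0.719% of the 10153 genes tested met the same rule. A gene was tested if its RPKM averaged 1 or more over the 3 libraries, and all 36 members passed this filter on low values. None was at least 2-fold higher in both, and 0.0985% of all genes were. In siCDCA3-1 alone 10 members were at least 2-fold lower (1.74% of all genes) and in siCDCA3-2 alone 7 (3.27%). In this bulk RNA, fewer cells expressing a gene and less RNA per cell cannot be told apart.

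**Figure D1:**
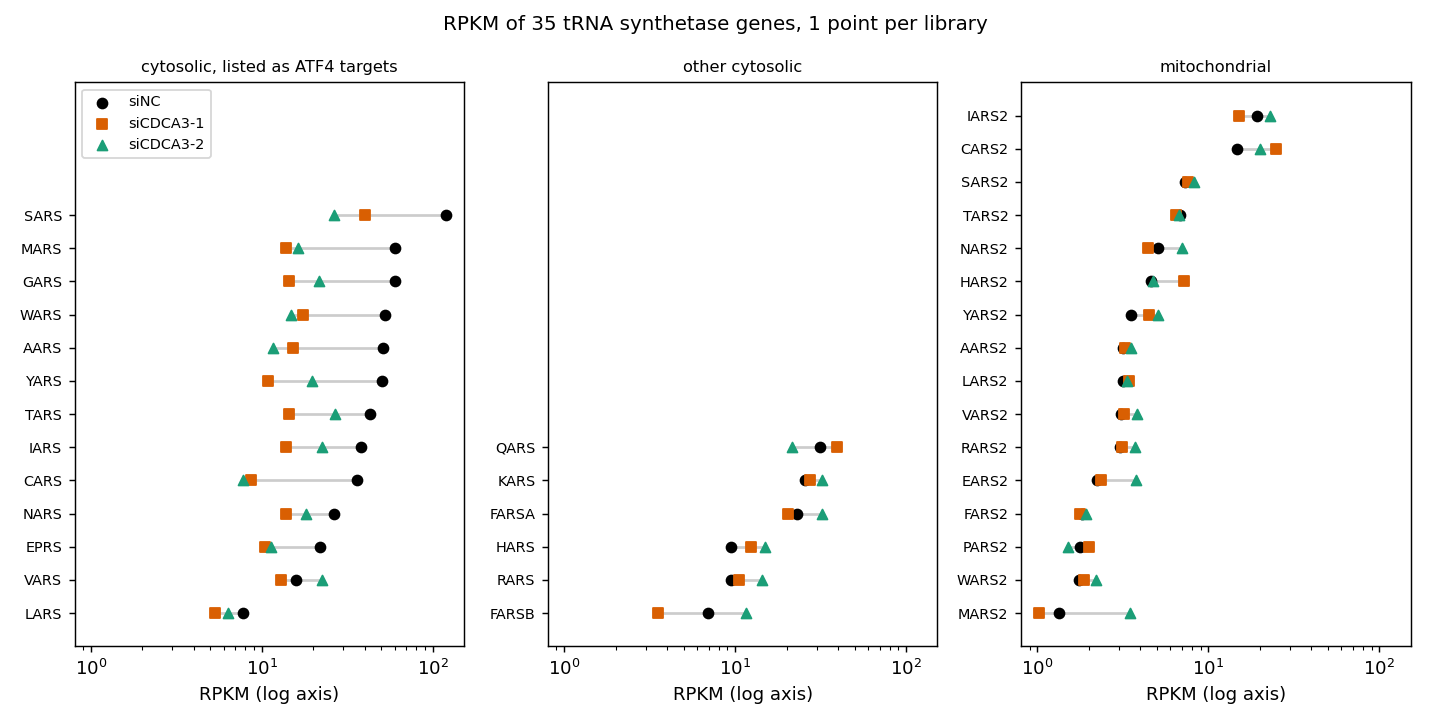
RPKM (log axis) of each synthetase gene, 1 point per library: siNC black circles, siCDCA3-1 orange squares, siCDCA3-2 green triangles, with a grey line joining the lowest and highest. Among the 13 cytosolic genes listed as ATF4 targets (left) siNC is the highest point for 12, VARS being the exception, while for 6 other cytosolic genes (middle) and the 16 mitochondrial genes (right) no such order is seen.

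Tested against a spread between the siCDCA3 libraries that was largely pooled over genes, these differences did not pass after adjustment over all genes. With edgeR's quasi-likelihood test and Benjamini-Hochberg adjustment 0 of the 36 members were called, where 0.0295% of all genes were. At an unadjusted p under 0.05 edgeR gave the same 7 genes, all lower, against 0.965% of all genes lower at that level. DESeq2 called 1 member, CARS (0.0985% of all genes), as did edgeR without the filter on low values (0.117%), and limma called 0. The edgeR fit has 1 residual degree of freedom beside 12.02 prior degrees of freedom taken from all genes. The variance used for a gene is therefore mostly not its own. The fit also assumes that the lone siNC library varies as the siCDCA3 libraries do.

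CARS, the cysteinyl-tRNA synthetase (NM_001194997.1, GRCh38 chromosome 11, 3000929 to 3057423), had an RPKM of 36.1 with siNC, 8.59 with siCDCA3-1 and 7.73 with siCDCA3-2. Both siCDCA3 libraries lay near each other and far below siNC, at 23.8% of it (counting interval 22.8% to 24.8%) and 21.4% (20.6% to 22.2%). In edgeR the log2 fold change was -2.13 (standard error 0.47, edgeR adjusted p = 0.6354). Its adjusted p was 0.04805 in DESeq2 and 0.02799 in edgeR without the filter, and ran from 0.02799 to 1.0 over the 6 alternatives. Among all 10153 genes CARS was the 20th lowest difference in siCDCA3-1 and the 41st lowest in siCDCA3-2.

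MARS, the methionyl-tRNA synthetase (NM_004990.3, chromosome 12, 57488068 to 57516652), had an RPKM of 60.1 with siNC, 13.9 with siCDCA3-1 and 16.2 with siCDCA3-2. Its siCDCA3 levels were 4.33-fold and 3.72-fold lower than siNC, with an edgeR log2 fold change of -1.99, a standard error of 0.48 and an edgeR adjusted p of 0.9997. The MARS locus overlaps DDIT3, and no source used here says if reads were counted by strand. DDIT3 had 1649, 298 and 287 counts in the 3 libraries, far under the 22858, 4210 and 7573 of MARS.

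AARS, the alanyl-tRNA synthetase (NM_001605.2, chromosome 16, 70252298 to 70289506), had an RPKM of 51.4 with siNC, 15.2 with siCDCA3-1 and 11.7 with siCDCA3-2. SARS, the seryl-tRNA synthetase (NM_001330669.1, chromosome 1, 109213893 to 109238182), had 119.9, 39.9 and 26.6, the highest level of any synthetase in siNC. For both genes siCDCA3-2 was the lowest library. The edgeR log2 fold changes were -1.92 for AARS and -1.82 for SARS, with standard errors of 0.49 and 0.51.

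WARS, the tryptophanyl-tRNA synthetase (NM_004184.3, chromosome 14, 100333790 to 100376327), had an RPKM of 52.7 with siNC, 17.3 with siCDCA3-1 and 14.7 with siCDCA3-2. WARS is also known as an interferon-induced gene. GARS, the glycyl-tRNA synthetase of both compartments (NM_001316772.1, chromosome 7, 30594735 to 30634033), had 60.1, 14.4 and 21.6. YARS, the tyrosyl-tRNA synthetase, had 50.2, 10.8 and 19.6. In GARS and YARS siCDCA3-1 was the lowest library, with siCDCA3-2 at 149.6% and 181.3% of it. The YARS locus overlaps S100PBP, which had 1860, 861 and 2171 counts against 20395, 3514 and 9824 for YARS. The edgeR adjusted p of AARS, SARS, WARS, GARS and YARS was 0.9997 for each.

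The remaining cytosolic members usually listed as ATF4 targets had smaller differences. IARS (isoleucine) had RPKM of 37.9, 13.9 and 22.4 in siNC, siCDCA3-1 and siCDCA3-2, and TARS (threonine) had 43.0, 14.4 and 26.9. Both were more than 2-fold lower in siCDCA3-1 and less than 2-fold lower in siCDCA3-2. EPRS, which charges both glutamate and proline, had 21.9, 10.4 and 11.3 and lay just outside the 2-fold rule, with differences of -1.003 and -0.898. NARS (asparagine) had 26.5, 13.8 and 18.1, and LARS (leucine) had 7.76, 5.30 and 6.33. VARS (valine) had 15.74, 12.98 and 22.4, and was the one of the 13 that was not lower in both libraries. As a group the 13 had median differences of -1.55 in siCDCA3-1 and -1.31 in siCDCA3-2, where the medians over all genes were -0.067 and 0.046. The lists were drawn with earlier results of these data known, so this split of the cytosolic members is a description only.

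Of these 13 genes, 10 had a listed promoter, and LARS, VARS and YARS did not. Of the 7 genes with a motif match, AARS, CARS, GARS and MARS were at least 2-fold lower in both libraries and IARS, NARS and TARS were not. Of the 3 without a match, SARS and WARS were at least 2-fold lower in both and EPRS was not.

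**Figure D2:**
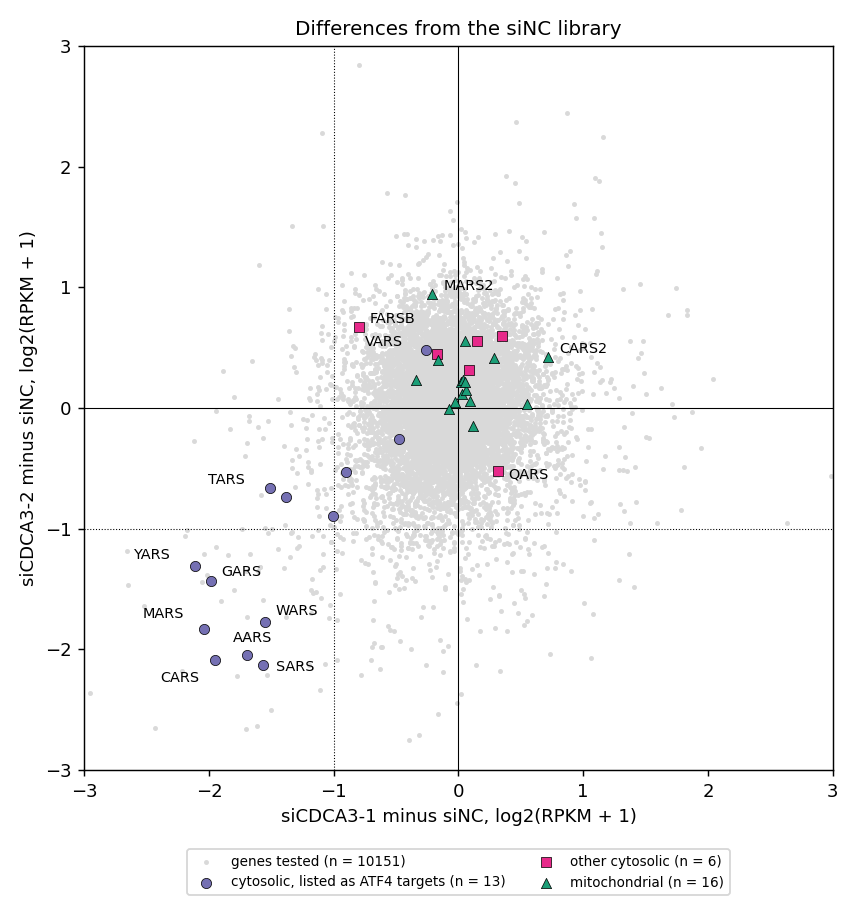
Difference from siNC in siCDCA3-1 (horizontal) and in siCDCA3-2 (vertical), both of log2(RPKM + 1) and both using the same siNC library, for the genes tested (grey) and the 3 groups of synthetase genes; dotted lines mark 2-fold lower, and 19 genes lie outside the axes. The 7 labelled circles under both dotted lines are AARS, CARS, GARS, MARS, SARS, WARS and YARS, while the mitochondrial genes lie around the centre.

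The other 7 cytosolic members, among them FARSA, FARSB, HARS, KARS, QARS and RARS, had median differences of 0.082 and 0.52. None of the 7 was lower in both libraries, 3 were higher in both and 4 went opposite ways. Over all genes 27.8% were lower in both, 23.6% were higher in both and 48.5% went opposite ways. HARS (histidine) had an RPKM of 9.52 with siNC, 12.4 with siCDCA3-1 and 14.9 with siCDCA3-2, RARS (arginine) 9.44, 10.6 and 14.3, and KARS (lysine) 25.8, 27.4 and 32.4. These 3 were highest in siCDCA3-2 and lowest in siNC.

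FARSA, FARSB and QARS, which went opposite ways, showed how far the siCDCA3 libraries lay from each other. FARSA and FARSB encode the subunits of one enzyme, the phenylalanyl-tRNA synthetase. FARSB had RPKM of 6.896, 3.53 and 11.6 in siNC, siCDCA3-1 and siCDCA3-2, so that siCDCA3-2 was at 328.3% of siCDCA3-1. FARSA had 23.2, 20.5 and 32.04, a narrower range with the same order. QARS (glutamine) had the reverse order, with 31.6, 39.5 and 21.6. In all, 27 of the 36 members were higher in siCDCA3-2 than in siCDCA3-1, where 57.8% of all genes were.

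The order of levels among the synthetases changed with these differences. In siNC the 9 highest members were SARS, MARS, GARS, WARS, AARS, YARS, TARS, IARS and CARS, all listed as ATF4 targets, with MARS and GARS at the same level of 60.1. In siCDCA3-1 SARS (39.9) and QARS (39.5) led, followed by KARS (27.4) and the mitochondrial CARS2 (24.8). In siCDCA3-2 KARS (32.4) and FARSA (32.04) led, and CARS had gone from rank 9 in siNC to rank 20 and rank 22. Summed over the 20 cytosolic members, RPKM was 700.4 with siNC, 313.5 with siCDCA3-1 and 367.9 with siCDCA3-2. Over the 7 cytosolic members not listed as ATF4 targets the sum was 117, 122.6 and 142.5.

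The mitochondrial synthetases, which are nuclear genes whose proteins are imported, had lower levels, with differences from -0.34 to 0.94. Their median RPKM was 3.18 in siNC, 3.36 in siCDCA3-1 and 3.79 in siCDCA3-2, against 29.1, 13.8 and 17.1 for the cytosolic members. At the mitochondrial levels the 1 added to RPKM shrinks a difference more. The upper end of 0.94 was MARS2 in siCDCA3-2, whose RPKM was 261.4% of siNC. The median differences were 0.045 and 0.21 over the 16 mitochondrial members, and -0.95 and -0.60 over the 20 cytosolic ones. Of the 16, 10 were higher in both libraries, TARS2 alone was lower in both and the signs of 5 differed between the libraries. The shares over all genes were 23.6%, 27.8% and 48.5%. The sign of FARS2 and of HARS2 changed in a library when RPKM was rescaled by TMM, and that of RARS2 when the longest transcript was used. No mitochondrial member was 2-fold different in both libraries, where 0.719% of all genes were 2-fold lower and 0.0985% 2-fold higher. None had an unadjusted edgeR p under 0.05, and 134 of the 10153 genes tested did. GARS and KARS, which serve both compartments, were counted as cytosolic only. GARS was at least 2-fold lower in both libraries and KARS was higher in both.

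CARS2, the mitochondrial cysteinyl enzyme, which is also known to make cysteine persulfides, had an RPKM of 14.6 with siNC, 24.8 with siCDCA3-1 and 19.97 with siCDCA3-2. It was the member with the largest difference upward in the less changed library, with an edgeR log2 fold change of 0.63, a standard error of 0.50 and an edgeR adjusted p of 0.9997. The CARS2 locus overlaps ING1, which had 1727, 1313 and 2533 counts against 3648, 4931 and 6124 for CARS2. YARS2 had 3.53, 4.50 and 5.05. HARS2 had 4.61, 7.23 and 4.74, high in siCDCA3-1 only. MARS2 had 1.34, 1.02 and 3.50, from 539, 329 and 1735 counts, so that siCDCA3-2 stood above the other libraries. IARS2, the highest mitochondrial member in siNC, had 19.3, 15.1 and 22.9.

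Other mitochondrial members lay closer to siNC. SARS2 had RPKM of 7.31, 7.65 and 8.24, TARS2 6.82, 6.43 and 6.75, and AARS2 3.19, 3.27 and 3.52. For LARS2 the levels were 3.17, 3.45 and 3.36, and for RARS2 3.06, 3.11 and 3.70. These 5 genes lay within 94.3% to 121.0% of siNC in each siCDCA3 library. VARS2, WARS2, FARS2 and PARS2 had levels between 1.51 and 3.82. Exceptions were NARS2, with 5.10, 4.44 and 7.03, and EARS2. EARS2, which charges the tRNAs for both glutamate and glutamine in mitochondria, had 2.24, 2.37 and 3.77. Its locus overlaps GGA2, with 3289, 3391 and 4839 counts against 1160, 976 and 2399 for EARS2. The FARS2 locus overlaps LYRM4, with 899, 516 and 936 counts against 446, 347 and 581 for FARS2. Reads of these overlapping genes cannot be told apart where strand was not used.

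For 13 amino acids the list held a cytosolic gene and a mitochondrial gene of the matching name, and these pairs were set against each other within each library. Phenylalanine, whose cytosolic enzyme has subunits from separate genes, and glutamate and proline, which share EPRS in the cytosol, were not paired. The cytosolic gene exceeded the mitochondrial one in all 13 pairs in siNC, with a median RPKM ratio of 5.20 and a range of 1.96 to 44.9. The median ratio was 3.10 in siCDCA3-1 and 3.32 in siCDCA3-2. The ratio was lower than in siNC in both siCDCA3 libraries for 10 of the 13 pairs, the exceptions being histidine, arginine and valine. In these 10 pairs the cytosolic gene was itself lower in both libraries, so this count is not a separate result. For cysteine the order was inverted: CARS to CARS2 stood at 2.47 in siNC, 0.346 in siCDCA3-1 and 0.387 in siCDCA3-2. For isoleucine it was 1.96, 0.921 and 0.975. For methionine the ratio was 44.9, 13.6 and 4.62, the last resting partly on the higher MARS2 level in siCDCA3-2.

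**Figure D3:**
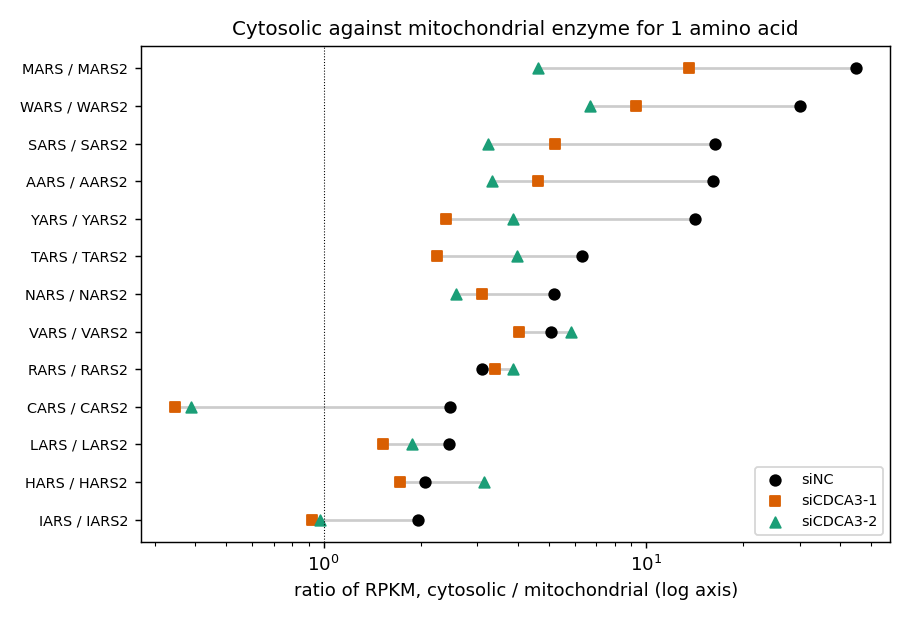
Ratio of the RPKM of the cytosolic to that of the mitochondrial synthetase gene for each of 13 amino acids (log axis), 1 point per library, with the dotted line at equal levels. The siNC point (black) lies rightmost in 10 of the 13 pairs, and the siCDCA3 points of CARS and CARS2, and of IARS and IARS2, lie left of the dotted line.

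Structural class and place in the complex gave other divisions of the same genes. Synthetases fall into classes I and II, which have unrelated catalytic folds. The 10 cytosolic class I genes had median differences of -1.20 and -0.82, with 4 of them at least 2-fold lower in both libraries. The 10 cytosolic class II genes had -0.85 and -0.11, with 3. The 8 enzymes of the multisynthetase complex (among them EPRS, IARS, KARS, LARS, MARS, QARS and RARS) had medians of -0.36 and -0.39. Of these, MARS alone was at least 2-fold lower in both libraries, against 6 of the 12 cytosolic genes outside the complex, whose medians were -1.53 and -0.99. Over all genes tested, 0.719% were at least 2-fold lower in both. Within the complex only EPRS, IARS, LARS and MARS are listed as ATF4 targets. None of the 7 cytosolic genes not so listed was at least 2-fold lower in both. The division by complex thus overlaps that by listing. Whether these divisions differ was not tested.

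The scaffold genes of the complex went opposite ways in the siCDCA3 libraries, as 48.5% of all genes did. AIMP1 had an RPKM of 4.65 with siNC, 2.15 with siCDCA3-1 and 6.20 with siCDCA3-2, AIMP2 had 12.3, 8.89 and 16.8, and EEF1E1 had 3.42, 1.89 and 5.29. All 3 were lowest in siCDCA3-1 and highest in siCDCA3-2, as were several synthetase genes, among them FARSA, FARSB, VARS and MARS2. XPOT, the exporter that carries tRNA out of the nucleus, had 15.8, 4.12 and 11.7, at 26.1% of siNC in siCDCA3-1 and 74.4% in siCDCA3-2.

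**Figure D4:**
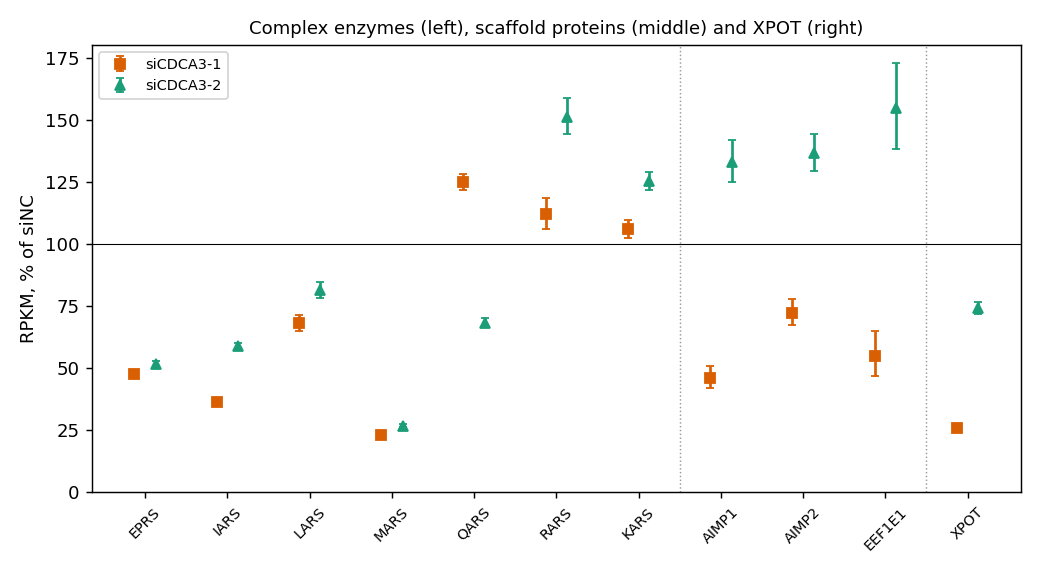
RPKM as a percent of siNC, with exact 95% counting intervals, for 7 enzymes of the multisynthetase complex, its 3 scaffold genes and XPOT (siCDCA3-1 orange squares, siCDCA3-2 green triangles). EPRS, IARS, LARS and MARS lie under the line at siNC in both libraries, while the 3 scaffold genes lie under it in siCDCA3-1 and above it in siCDCA3-2.

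Of 20 other genes of tRNA charging and delivery, 18 passed the filter on low values, and the selenocysteine genes PSTK and SEPSECS did not. Of the 18, XPOT was lower in both libraries and TUFM, GATB and PTRH2 were higher in both, while 14 went opposite ways. Over all genes 27.8% were lower in both, 23.6% were higher in both and 48.5% went opposite ways. EdgeR called 0 of the 18, where 0.0295% of all genes were called. At an unadjusted edgeR p under 0.05 there were 0 of the 18, and 134 of the 10153 genes tested, so few would be found among 18 genes. EEF1A1, the factor that carries charged tRNA to the ribosome, had RPKM of 718.3, 928.2 and 652.7. Its mitochondrial counterpart TUFM had 44.4, 45.7 and 47.0. GATB, GATC and QRSL1, the amidotransferase subunits that complete mitochondrial glutaminyl-tRNA, had differences from -0.258 to 0.192. PTRH2, a peptidyl-tRNA hydrolase, had 3.29, 5.40 and 7.06.

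RNA of ATF4, of ASNS and of the kinase gene EIF2AK4 was measured in the same libraries and is given for context. Any link of these genes to the synthetase levels was not tested. ATF4 had an RPKM of 83.1 with siNC, 33.3 with siCDCA3-1 and 36.7 with siCDCA3-2 (edgeR log2 fold change -1.24, standard error 0.48, edgeR adjusted p = 0.9997), and ASNS, an ATF4 target, had 40.5, 1.02 and 1.40 (edgeR adjusted p = 0.001428). EIF2AK4, the sensor of uncharged tRNA, had 6.97, 5.91 and 8.51.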

How the data were processed

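Ribosome-depleted RNA of 3 libraries was read in pairs. Per the submitters' processing notes, Trimmomatic 0.36, FastQC, HISAT2 and HTSeq were used, and hg38 and mm10 are listed without a role; 98.6% of the accessions matched human RefSeq. Per the file headers, the deposited table holds a whole-number count for each RefSeq transcript and library, and RPKM, which the authors scaled by transcript length and 1 total per library.

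Overlapping transcripts had been counted repeatedly, so the transcript with the most counts stood for each gene. Of the 36 members, 20 had several transcripts. Spreadsheet dates in 103 rows were turned back into symbols through the accession. EdgeR 4.0.16 (R 4.3.3, TMM, quasi-likelihood, two-sided, Benjamini-Hochberg over 10153 genes, threshold 0.05) was the main test. It was run on simulated counts whose changes were larger than those of the members, so that check does not cover changes of this size. Standard errors were taken as the size of the log2 fold change divided by the root of its F statistic. DESeq2 1.42.0 and limma 3.58.1 (trend, log2(RPKM + 1)) were alternatives, with median-of-ratios scaling, no filter, a mean RPKM of at least 5, the longest transcript, pseudocounts of 0.1 and 0.5, TMM-rescaled RPKM and each siCDCA3 library left out. The p-values rest on the spread between the siCDCA3 libraries, pooled in part over genes, since the lone siNC library adds none. That spread may be technical or, if the siRNA sequences differed, may include their effects.

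The members and lists were chosen with earlier results of these data known. Full values were planned for the 6 members lowest and the 4 highest in the less changed siCDCA3 library, and any member may be named. The values of 1 cytosolic member are not reported here; it is included in the group counts, sums and medians. TMM moved the median of all genes by under 0.1 (log2).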

Additional observations from a re-analysis of the deposited data

How the results depend on the processing

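The count of members at least 2-fold lower in both siCDCA3 libraries was 7 under each pseudocount, filter, scaling and transcript choice, 7 in siCDCA3-2 alone and 10 in siCDCA3-1 alone. The filters dropped no cytosolic member, so they could change neither this count nor the cytosolic medians below. AARS, MARS and YARS have 1 listed transcript each, so the transcript choice could not change them. EdgeR, median-of-ratios scaling, limma, the stricter filter and the longest transcript called 0 members, while DESeq2 and edgeR without a filter called 1 (CARS, log2 fold changes -2.13 and -2.19). The median differences of the cytosolic members kept their sign in every setting, from -1.004 to -0.875 in siCDCA3-1 and from -0.65 to -0.60 in siCDCA3-2. That of the mitochondrial members in siCDCA3-1 was -0.008 at a mean RPKM of at least 5, where 26 of the 36 members were left. All members lost there were mitochondrial, and CARS2, HARS2, IARS2, NARS2, SARS2 and TARS2 were the mitochondrial ones left.

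Over the 35 members whose values are reported, of 200 fold changes under other tools, scalings, filters or transcripts, 4 changed sign, all near 0: FARSB (-0.063, limma), FARS2 (-0.027, no filter) and PARS2 (-0.015, limma, and -0.047, no filter). With 1 siCDCA3 library left out, a value with no test, 9 of 70 changed sign. The lowest and highest values were -0.096 and 0.408 for FARSA, -0.882 and 0.691 for FARSB, -0.606 and 0.404 for QARS, and -0.197 and 0.448 for VARS. Among mitochondrial members they were -0.019 and 0.731 for HARS2, -0.277 and 0.187 for IARS2, -0.305 and 1.33 for MARS2, -0.118 and 0.403 for NARS2, and -0.296 and 0.261 for PARS2. A value with 1 siCDCA3 library left out is the difference of the other one from siNC. Its sign therefore changed where the siCDCA3 libraries went opposite ways after TMM. Why they differed was not tested. No count of calls could be made with a siCDCA3 library left out, since no residual degree of freedom is left. No paired analysis was possible because siNC is a single library without a replicate number. MARS2 (329 to 1735 counts) and FARS2 (347 to 581) had the lowest single-library counts of the members, which limits their precision.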
